A study of Mus musculus with 9 samples.

Results

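Proteasome genes were followed by RNA-seq in 4T1, an epithelial line from a mouse mammary carcinoma. Genes were chosen by name alone, as every gene whose symbol starts with Psma, Psmb, Psmc, Psmd, Psme or Psmg and a number, with the immunoproteasome genes Psmb8, Psmb9 and Psmb10 and the named pseudogenes left out. This gave 47 of 52306 genes, of which 44 had a mean of at least 1 FPKM (fragments per kilobase, scaled to library size) and were among the 10453 genes tested. The products of 45 belong to the proteasome, its activators or its assembly chaperones. The other 2, Psmc3ip and Psme3ip1, are named after a subunit they bind and are not counted as parts of the proteasome.

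The libraries were sampled at day 2 and formed 3 groups of 3: cells treated with MK1775 (adavosertib), which inhibits the kinase Wee1, cells labelled as given Wee1 siRNA, and a negative control (NC). All were 4T1 cells grown in DMEM with serum. The sources used here give neither the dose of MK1775 nor the siRNA sequences, nor whether NC received vehicle or a control siRNA. The labels do not say that replicates were separate cultures, so the p-values speak only of the spread among these libraries, which may be technical. Titles of the siRNA-labelled libraries, unlike the others, carry a # after the number. Whether these are replicates or different siRNAs is not stated, and they are called replicates here. The same 3 NC libraries serve both comparisons with NC, so these comparisons are not independent, and a deviation of NC would appear in both. Vehicle, transfection or preparation cannot be told apart from treatment.

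The proteasome is the main protease for ubiquitin-tagged proteins in the cytosol and nucleus. Its core particle, the 20S barrel, is built from outer rings of alpha subunits and inner rings of beta subunits, some of which carry the catalytic sites. The 19S regulatory particle caps the barrel: its base holds a ring of ATPases that unfold substrates and feed them in, and its lid removes ubiquitin. Most of these genes are transcribed in every cell, and when proteasome activity falls short they are known to be raised together by the factor Nfe2l1, which binds antioxidant response elements in their promoters.

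Wee1, the gene named by both treatments, lies on chromosome 7 from 109721253 to 109742700 (GRCm39, plus strand). It stood at 15, 14.7 and 16.8 FPKM with MK1775, at 13.1, 15.1 and 15.3 FPKM in the siRNA-labelled libraries, and at 11.5, 10.5 and 11 FPKM in NC. Every library of both treated groups was above every NC library. Because Wee1 was not lower in the siRNA-labelled group than in NC, that group is named by its label throughout, and each direction drawn from it rests on the label. Summed FPKM was 321551 to 332950 per library, with 10017 to 10783 genes at 1 FPKM or more, and FPKM carries no read totals, so the depth is unknown. Of 7 epithelial markers, Krt8, Krt18 and Cdh1 reached 1 FPKM and Epcam, Krt14, Cldn4 and Esrp1 did not. The summed epithelial markers were 762 to 780 FPKM with MK1775, 703 to 713 FPKM in the siRNA-labelled libraries and 409 to 475 FPKM in NC. Leukocyte markers summed to 1.94 to 2.81, 2.25 to 3.46 and 3.42 to 3.91 FPKM in the same order of groups, mostly Cd68, and Adgre1 and Cd3e were listed at 0 in all libraries. The part of these marker differences in the results was not tested.

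The proteasome did not move as a block in either comparison with NC. With MK1775, 7 of the 44 tested genes rose, 17 fell and 20 did not pass the test, where a call is a limma adjusted p under 0.05 over all 10453 genes. The background was high: 41% of all genes tested were called in that comparison, 17.9% as higher and 23.1% as lower. In the libraries labelled Wee1 siRNA, 5 rose, 17 fell and 22 did not pass, beside 42.8% of all genes tested that were called, 19.6% as higher and 23.2% as lower. Groups did not overlap for 9 genes that were higher and 16 that were lower with MK1775, beside 54% of all genes tested (23.8% higher and 30.1% lower). For the siRNA label these were 7 and 18 genes, beside 52.2% (24.1% higher and 28.1% lower). The median log2 fold change of the 44 genes was -0.03 with MK1775 and -0.11 for the siRNA label, beside -0.04 and -0.01 over all genes tested. Of the 44, 3 were called with a change of more than 0.5 on the log2 scale with MK1775 and 6 for the siRNA label, beside 19.3% and 20.9% of all genes tested. All fold changes here are on the log2(FPKM + 1) scale, with groups of 3 libraries.

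**Figure D1:**
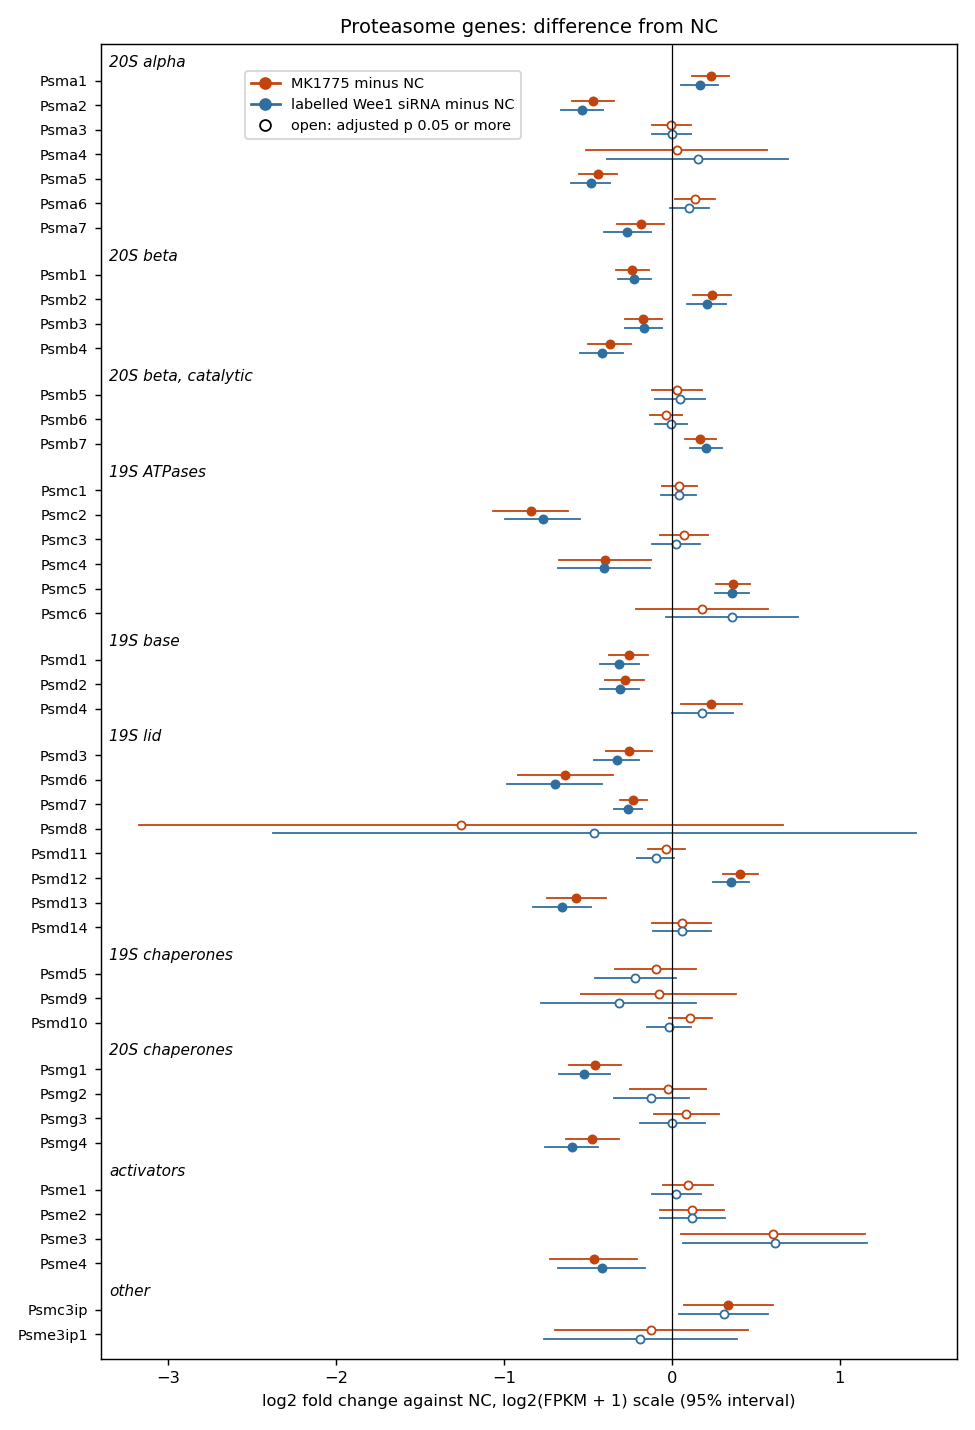
Log2 fold change against NC of each of the 44 tested proteasome genes, grouped by the role of the product, with 95% intervals from limma; MK1775 is in orange and the libraries labelled Wee1 siRNA in blue, and open points did not pass an adjusted p of 0.05. Called falls and rises stand side by side within the same ring or subcomplex, and Psmd8 has the widest interval.

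In all, the 47 genes summed to 3111, 3110.4 and 3152 FPKM with MK1775, to 3047, 3051 and 3153 FPKM in the siRNA-labelled libraries, and to 3160.4, 3328 and 3375 FPKM in NC. All 6 treated libraries were below all 3 NC libraries, by a margin that in NC replicate 1 was small. This held on named transcripts: with unnamed transcripts at the loci added, the sums were 3350.3, 3342 and 3415 FPKM with MK1775, 3287, 3271 and 3348 FPKM in the siRNA-labelled libraries, and 3354, 3576 and 3532 FPKM in NC, and the MK1775 and NC groups overlapped. In bulk RNA, fewer cells of a kind and less RNA per cell cannot be told apart. These sums were 0.963%, 0.943% and 1.00% of all FPKM as group means. The lid and base subunits other than ATPases were at 762 ± 14.6 FPKM with MK1775 and at 740.5 ± 9.82 FPKM under the siRNA label, against 848 ± 33.2 FPKM in NC (SD, n = 3 each), with every treated library below NC. With unnamed transcripts added, mostly those of Psmd8, these sums were 910.4 ± 7.09, 872 ± 7.95 and 965 ± 24.8 FPKM, still without overlap. The 6 ATPases together summed to 554 ± 20.4, 559.8 ± 21.8 and 559.6 ± 8.57 FPKM in MK1775, siRNA-labelled and NC libraries, so the groups overlapped. The 16 genes of the 20S core summed to 1525 ± 26.9, 1511 ± 29.2 and 1596 ± 56.1 FPKM in the same order. For the 5 activators the sums were 140.8 ± 8.51, 139.5 ± 5.59 and 128.5 ± 12.6 FPKM, higher on average in both treated groups. For both parts, each treated group overlapped NC on named transcripts. With unnamed transcripts added, the activator sums were 154 ± 6.78, 152 ± 3.54 and 146 ± 8.30 FPKM, again with overlap. The 7 assembly chaperones summed to 118 ± 3.44, 109 ± 5.05 and 134 ± 8.23 FPKM in that order, with every treated library below every NC library.

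**Figure D2:**
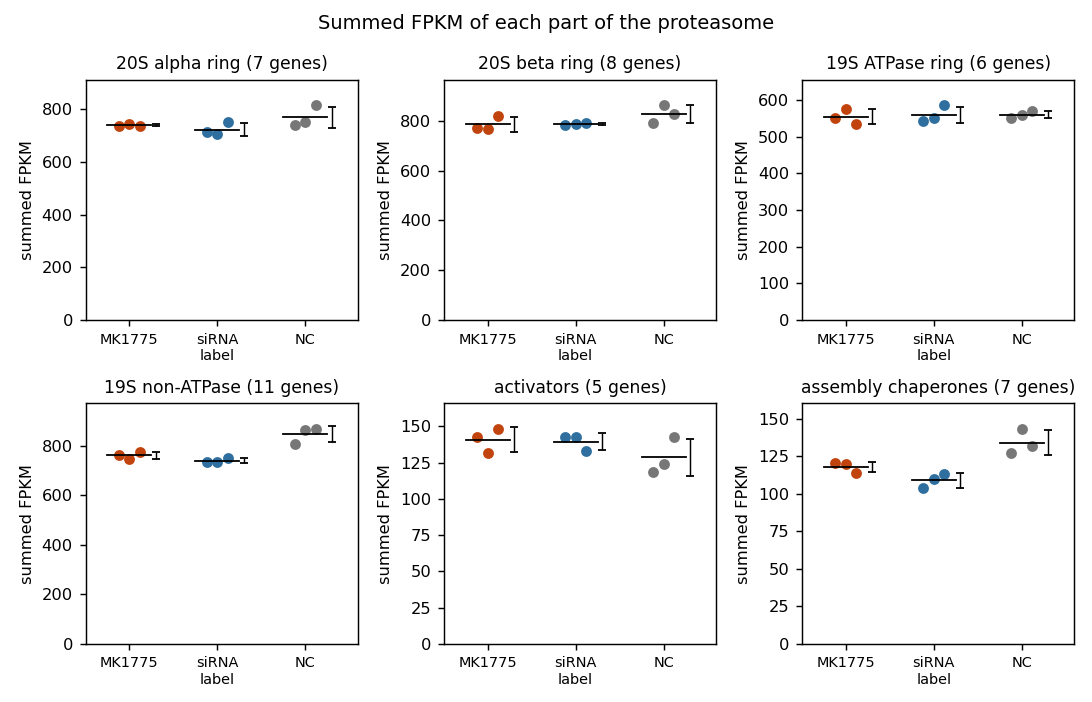
Summed FPKM of the genes of each part of the proteasome in every library, with MK1775, the siRNA label and NC from left to right; lines are means and bars are 1 SD (n = 3). The 19S non-ATPase subunits and the assembly chaperones lie lower in all treated libraries than in NC. The alpha ring, the ATPase ring and the activators overlap between each treated group and NC, and the beta ring overlaps between MK1775 and NC.

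The promoters of the genes that moved most are shown first, because a promoter element is how Nfe2l1 is known to act on these genes. The windows are the 250 bases before the RefSeq gene start (GRCm38.p6), read 5′ to 3′ along the gene, of the 2 falls and 2 rises that were largest over both comparisons among genes with a single window. Psmd6 is at chr14:14120946-14121195 on the minus strand, Psmd13 at chr7:140882144-140882393, Psmd12 at chr11:107479278-107479527 and Psmc5 at chr11:106255935-106256184, these 3 on the plus strand. Capitals mark the ETS element CCGGAAG, in either orientation, and in Psmd12 also the antioxidant response element TGACNNNGC.
Psmd6: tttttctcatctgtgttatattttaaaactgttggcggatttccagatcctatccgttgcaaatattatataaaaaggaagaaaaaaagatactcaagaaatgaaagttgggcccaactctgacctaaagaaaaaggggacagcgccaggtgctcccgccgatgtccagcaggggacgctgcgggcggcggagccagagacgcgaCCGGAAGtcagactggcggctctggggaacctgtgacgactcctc
Psmd13: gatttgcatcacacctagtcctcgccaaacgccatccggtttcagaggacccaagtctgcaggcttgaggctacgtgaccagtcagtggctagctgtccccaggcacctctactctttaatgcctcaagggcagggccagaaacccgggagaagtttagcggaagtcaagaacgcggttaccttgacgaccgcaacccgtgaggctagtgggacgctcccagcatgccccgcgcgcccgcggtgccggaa
Psmd12: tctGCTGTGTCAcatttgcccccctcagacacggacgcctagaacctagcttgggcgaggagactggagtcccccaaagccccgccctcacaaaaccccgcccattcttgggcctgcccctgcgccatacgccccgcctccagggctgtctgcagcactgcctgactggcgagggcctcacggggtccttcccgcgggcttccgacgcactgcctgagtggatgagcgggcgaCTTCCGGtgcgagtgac
Psmc5: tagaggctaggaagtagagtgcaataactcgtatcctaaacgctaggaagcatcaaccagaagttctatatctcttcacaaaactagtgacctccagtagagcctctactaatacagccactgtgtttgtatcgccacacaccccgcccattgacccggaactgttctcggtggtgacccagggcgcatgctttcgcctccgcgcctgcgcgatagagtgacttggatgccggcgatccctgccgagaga
In Psmd6, which fell, the ETS element starts 45 bases before the gene start. Psmd12, which rose, holds an ETS element 17 bases before the start and an antioxidant response element 247 bases before it. Psmd13, which fell, and Psmc5, which rose, hold none of the 3 motifs searched within the window. The Psmd13 window ends in ccggaa, the ETS element without its last letter. The next base lies outside the bases searched, so a match across that edge would not be counted.

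Motifs were searched on both strands in the 43 windows of the 39 genes that had one; Psma8, Psmb1, Psmb2, Psmb7, Psmc3, Psmd3, Psmd7 and Psmg2 had none in the table. The antioxidant response element TGACNNNGC was in 11.6% of these windows and in 10.2% of all 32851 promoter windows, and CCAAT was in 34.9% against 33.8%. CCGGAAG, a motif added after the sequences were seen, was in 32.6% of the proteasome windows and in 6.91% of all windows. The antioxidant response element was found in Psmb5, Psmb6, Psmc6, Psmd9 and Psmd12, and of these only Psmd12 was called in either comparison. A window can hold more than 1 motif, and a match says only that the letters are present.

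In the alpha ring, which gates the barrel, Psma1 rose in both comparisons and Psma2, Psma5 and Psma7 fell in both, while Psma3, Psma4 and Psma6 did not pass. Psma2 (chromosome 13, 14787825 to 14848821, GRCm39) was at 26.8, 27.4 and 26.5 FPKM with MK1775, at 24.6, 25.2 and 27.3 FPKM in the siRNA-labelled libraries, and at 35.9, 37.7 and 39.4 FPKM in NC. All treated libraries lay below NC without overlap, and Psma2 had the lowest FPKM of the tested alpha subunits in each group. It fell by 0.47 with MK1775 (SE 0.0546, limma adjusted p = 0.000308), and in the siRNA-labelled libraries by 0.54 (adjusted p = 0.000157). Psma5 was at 73.0, 68.8 and 71.6 FPKM, at 70.9, 64.8 and 71.6 FPKM, and at 94.1, 96.9 and 99.8 FPKM in MK1775, siRNA-labelled and NC libraries. Its groups did not overlap either, and its log2 fold changes were -0.44 and -0.48. Psma1 stood at 129, 139 and 127 FPKM with MK1775, at 122, 124 and 131 FPKM in the siRNA-labelled libraries, and at 112, 110.0 and 114 FPKM in NC, higher in every treated library, with log2 fold changes of 0.23 (adjusted p = 0.00527) and 0.17 (adjusted p = 0.0225). Without NC replicate 2 or siRNA-labelled replicate 3 the Psma1 call in the siRNA-labelled comparison was lost (adjusted p = 0.0619 to 0.0714). Psma3 was at nearly the same level throughout, at 60.9 ± 1.62, 61.0 ± 2.96 and 61.1 ± 2.51 FPKM, with 95% intervals of the log2 fold change from -0.12 to 0.11 in both comparisons. Psma7, the alpha subunit with the highest FPKM, fell to 195 ± 3.95 FPKM with MK1775 and to 185 ± 5.89 FPKM under the siRNA label, against 222 ± 18.5 FPKM in NC. Its MK1775 call (-0.19, adjusted p = 0.0415) was lost on leaving out any library but NC replicate 1 (adjusted p = 0.0503 to 0.131). That call was also lost when libraries were rescaled to a common total, by the median of ratios (limma adjusted p = 0.161) or by quantiles. Psma8, the alpha subunit of spermatogenic cells, was listed at 0 in all 9 libraries.

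In the beta rings, all 4 non-catalytic beta genes were called in both comparisons: Psmb1, Psmb3 and Psmb4 fell and Psmb2 rose. Psmb4, whose tail helps to join the rings of the barrel, was at 118, 116 and 126 FPKM with MK1775, at 118, 116 and 114 FPKM in the siRNA-labelled libraries, and at 146, 166 and 155 FPKM in NC. It was lower in every treated library and fell by 0.37 with MK1775 (adjusted p = 0.00113), and in the siRNA-labelled libraries by 0.42 (adjusted p = 0.000583). Psmb2 was at 64.8, 69.6 and 68.9 FPKM, at 65.4, 65.3 and 67.7 FPKM, and at 57.1, 60.3 and 54.4 FPKM in MK1775, siRNA-labelled and NC libraries, higher in every treated library, with log2 fold changes of 0.24 and 0.21. Psmb3 was the smallest change among them, at -0.17 in both comparisons, and its calls were lost without replicate 2 or 3 of NC, or without replicate 1 or 2 of the treated group (adjusted p = 0.0522 to 0.0776). Both Psmb3 calls were also lost when libraries were rescaled by the median of ratios (limma adjusted p = 0.101 and 0.0602) or by quantiles.

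Of the 3 constitutive catalytic subunits only Psmb7, which carries the trypsin-like site, was called. Psmb7 (chromosome 2, 38478048 to 38534099) was at 166, 163 and 173 FPKM with MK1775, at 167, 172 and 175 FPKM in the siRNA-labelled libraries, and at 144, 154 and 148 FPKM in NC. Every treated library was above every NC library, and Psmb7 rose by 0.17 with MK1775 (SE 0.0407, adjusted p = 0.0114), and in the siRNA-labelled libraries by 0.20 (adjusted p = 0.00477). Psmb5, the chymotrypsin-like subunit, was at 87.8, 84.0 and 97.8 FPKM, at 91.1, 91.9 and 89.4 FPKM, and at 82.2, 92.0 and 89.4 FPKM in the same order of groups, with overlapping groups. Its 95% intervals ran from -0.12 to 0.18 and from -0.10 to 0.20. Psmb6, the caspase-like subunit, was at 97.5, 93.9 and 102 FPKM, at 99.1, 101 and 100.3 FPKM, and at 97.7, 101 and 102 FPKM, with intervals from -0.13 to 0.06 and from -0.10 to 0.09. Psmb11, the thymus form of the chymotrypsin-like subunit, stayed at or below 0.0555 FPKM in every library and was not tested.

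The immunoproteasome genes, which encode alternative catalytic subunits and are known as interferon-induced, were called in both comparisons, 2 of 3 higher and 1 lower. Psmb9, the counterpart of Psmb6, was at 4.87, 4.82 and 5.02 FPKM with MK1775, at 5.22, 4.70 and 4.45 FPKM in the siRNA-labelled libraries, and at 1.97, 2.69 and 2.53 FPKM in NC. It was higher in every treated library, by 0.80 (adjusted p = 0.000372) and 0.77 (adjusted p = 0.000422) on the log2 scale. Psmb8, the counterpart of Psmb5, was at 21.7, 20.3 and 19.4 FPKM, at 22.4, 18.8 and 20.3 FPKM, and at 14.4, 16.4 and 15.3 FPKM, and rose by 0.39 in each comparison. On its most abundant transcript alone the rise of Psmb8 was 0.34 with MK1775 (adjusted p = 0.0598) and 0.01 in the siRNA-labelled libraries (adjusted p = 0.974). Psmb10, the counterpart of Psmb7, went the other way, at 7.11 ± 0.339, 7.69 ± 0.65 and 11.4 ± 1.57 FPKM, with log2 fold changes of -0.61 and -0.51. As a percentage of its constitutive counterpart, FPKM over FPKM, Psmb9 was at 5.01 ± 0.116, 4.79 ± 0.429 and 2.38 ± 0.331, and Psmb10 at 4.25 ± 0.305, 4.49 ± 0.301 and 7.66 ± 0.788 (SD, n = 3 each). Unnamed transcripts held 43.8% of the FPKM at the Psmb10 locus, and with them added the percentage for Psmb10 was 7.98 ± 0.303, 7.61 ± 0.177 and 13.6 ± 0.763, with log2 fold changes of -0.56 and -0.60.

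**Figure D3:**
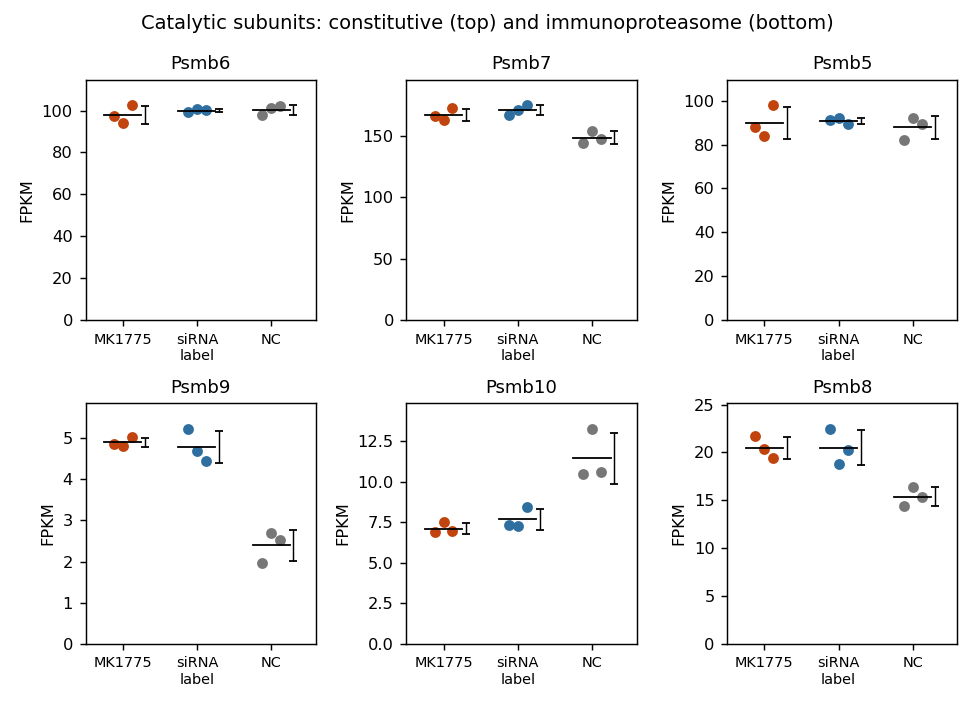
FPKM of the constitutive catalytic subunits (top) and of the immunoproteasome subunit that takes the place of each (bottom) in every library, with MK1775, the siRNA label and NC from left to right; lines are means and bars are 1 SD (n = 3). Psmb9 and Psmb8 lie higher and Psmb10 lower in all treated libraries than in NC, while Psmb6 and Psmb5 overlap.

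The ATPase ring of the 19S base held both the largest fall and one of the largest rises among the called subunits. Psmc2 (chromosome 5, 21990281 to 22008785) was at 42.7, 40.4 and 33.1 FPKM with MK1775, at 37.7, 40.8 and 43.3 FPKM in the siRNA-labelled libraries, and at 66.3, 70 and 73.3 FPKM in NC. The groups were far apart, with every treated library under every NC library. Psmc2 fell by 0.84 with MK1775 (SE 0.0968, 95% interval -1.06 to -0.62, adjusted p = 0.000298), and in the siRNA-labelled libraries by 0.77 (95% interval -0.99 to -0.55, adjusted p = 0.000437). MK1775 replicate 3, the lowest, also had 9.87 FPKM in an unnamed transcript at the locus, and with it added the change was -0.72. Psmc5 (chromosome 11, 106146980 to 106153946) was at 121, 123 and 123 FPKM, at 125, 118 and 122 FPKM, and at 90.4, 99.4 and 94.5 FPKM in MK1775, siRNA-labelled and NC libraries. Its treated libraries all lay above NC, and it rose by 0.36 in both comparisons (SE 0.0438, adjusted p = 0.000372 and 0.00038). Psmc1 and Psmc3 were close to their NC levels, with intervals from -0.06 to 0.15 for Psmc1 in both comparisons. Psmc4 fell by 0.40 in both, with less margin: the MK1775 and NC groups touched, since MK1775 replicate 2 stood at 65.9 FPKM and NC replicate 1 at 65.7 FPKM. The Psmc4 calls were lost without replicate 2 or 3 of NC, or without replicate 1 or 3 of the treated group (adjusted p = 0.0589 to 0.0907), and with unnamed transcripts added the MK1775 change was -0.22. Psmc6 varied within groups, at 68.9, 44.9 and 54.8 FPKM in NC, and was not called.

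Among the other base subunits, Psmd1 and Psmd2, the scaffolds that hold the ubiquitin-binding sites of the base, fell in both comparisons. Psmd1 was at 80.0 ± 2.49, 77.0 ± 4.64 and 95.8 ± 1.7 FPKM, and Psmd2 at 105 ± 5.17, 103 ± 2.80 and 127 ± 5.26 FPKM in MK1775, siRNA-labelled and NC libraries, both without overlap. Psmd4, a ubiquitin receptor, was at 107, 84.0 and 92.9 FPKM with MK1775, at 89.0, 92.2 and 90.5 FPKM in the siRNA-labelled libraries, and at 76.8, 80.3 and 82.3 FPKM in NC. It was higher in every treated library, and on named transcripts passed with MK1775 (log2 fold change 0.23, adjusted p = 0.0448) but not in the siRNA-labelled libraries (0.18, adjusted p = 0.102). With unnamed transcripts added it passed in both (0.26, adjusted p = 0.00145, and 0.20, adjusted p = 0.00583). The call on named transcripts was lost on leaving out any library other than MK1775 replicate 2, with adjusted p of 0.0617 to 0.115, and the direct difference between MK1775 and the siRNA-labelled libraries did not pass (0.05, adjusted p = 0.915). Adrm1, the other ubiquitin receptor of the base, was not called, at 77.7 ± 5.29, 75.7 ± 4.71 and 85.9 ± 6.22 FPKM.

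In the lid, 4 of 8 genes fell and 1 rose in each comparison. Psmd6 (chromosome 14, 8348779 to 8357632) was at 37.3, 44.2 and 39.9 FPKM with MK1775, at 38.6, 32.1 and 46.6 FPKM in the siRNA-labelled libraries, and at 61.7, 63.5 and 64.8 FPKM in NC. All treated libraries were below NC, with log2 fold changes of -0.64 (SE 0.123, adjusted p = 0.00403) and -0.70 (adjusted p = 0.00243). Psmd13 (chromosome 7, 140461881 to 140478556) was at 34.1, 33.2 and 36.1 FPKM, at 31.4, 32.1 and 33.8 FPKM, and at 46.1, 56.7 and 52.4 FPKM, again with no overlap, and fell by 0.57 (adjusted p = 0.000626) and 0.65 (adjusted p = 0.000299). Psmd3 and Psmd7, the partner of the deubiquitinase, fell less, by 0.26 and 0.23 with MK1775 and by 0.33 and 0.26 in the siRNA-labelled libraries. Psmd12 (chromosome 11, 107370310 to 107395188), a scaffold of the lid, rose instead. It was at 86.8, 82.1 and 83.6 FPKM with MK1775, at 79.5, 79.6 and 83.4 FPKM in the siRNA-labelled libraries, and at 62.1, 61.0 and 66.5 FPKM in NC, higher in every treated library by 0.41 (SE 0.046, adjusted p = 0.000269) and 0.35 (adjusted p = 0.000544). Psmd14, the deubiquitinase of the lid, was at 78.6 ± 2.43, 78.9 ± 5.94 and 75.6 ± 6.62 FPKM, with intervals from -0.12 to 0.23 and from -0.11 to 0.24. Psmd11 did not pass either.

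**Figure D4:**
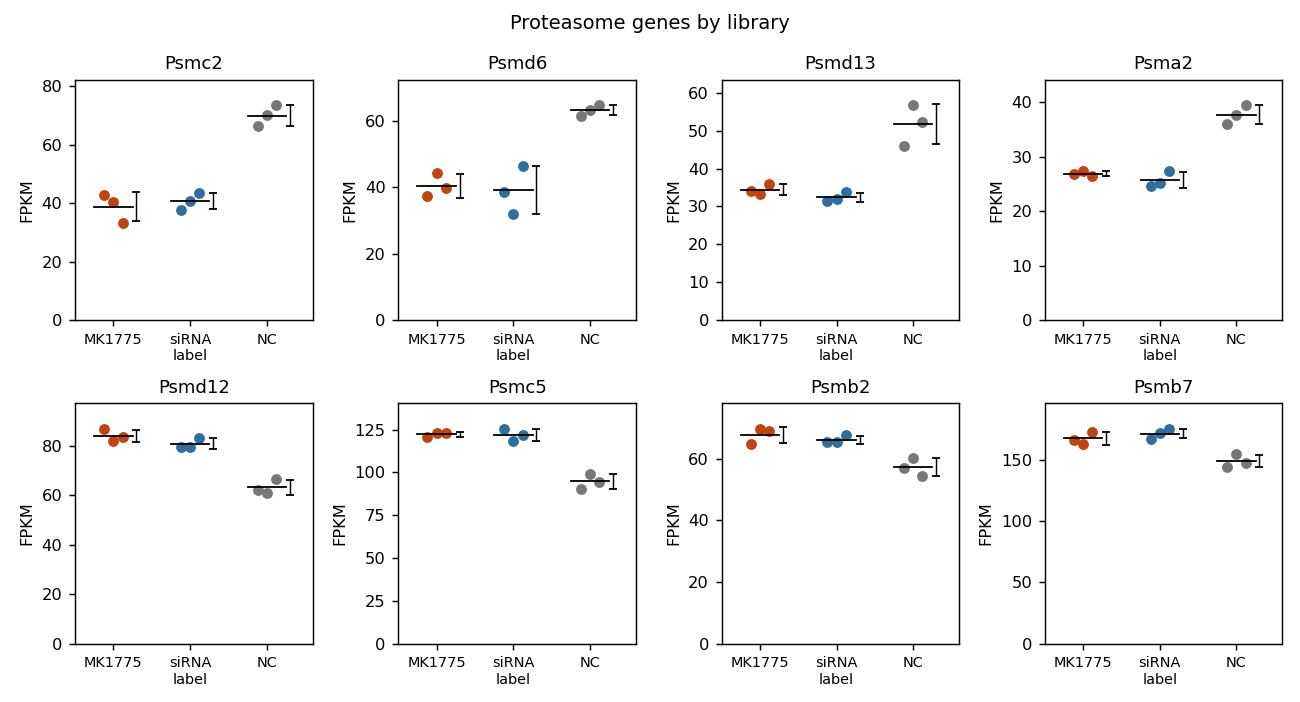
FPKM of 4 proteasome genes that fell (top) and 4 that rose (bottom) in every library, with MK1775, the siRNA label and NC from left to right; lines are means and bars are 1 SD (n = 3). In each panel the NC libraries lie apart from all 6 treated libraries, above them for Psmc2, Psmd6, Psmd13 and Psma2 and below them for Psmd12, Psmc5, Psmb2 and Psmb7.

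The lid gene Psmd8 shows how the transcript models bear on these values. Its named transcripts held 2.06, 1.11 and 1.66 FPKM with MK1775, 1.88, 9.30 and 2.02 FPKM in the siRNA-labelled libraries, and 2.47, 1.78 and 23.2 FPKM in NC, so NC replicate 3 alone set the NC mean. An assembled transcript with no gene name at the same locus held 94.8% of the FPKM there. With it added, Psmd8 was at 107, 108 and 107 FPKM, at 102, 98.2 and 101 FPKM, and at 84.0, 93.5 and 78.6 FPKM in MK1775, siRNA-labelled and NC libraries. Every treated library was then above NC, and the log2 fold changes were 0.33 (adjusted p = 0.0013) and 0.23 (adjusted p = 0.00822), in place of -1.26 (adjusted p = 0.27) and -0.46 (adjusted p = 0.689) on the named transcripts. Unnamed transcripts were present at the loci of 19 of the 47 genes and held over 10% of the FPKM at 10. Psma4 is another case: NC replicate 2 stood at 48.3 FPKM beside 81.0 and 98.6 FPKM in the other two, and the totals with unnamed transcripts were 106, 105 and 114 FPKM. For Psmd6 the fall was about as large with them added, at -0.71 and -0.69. With unnamed transcripts counted, 10 genes rose with MK1775 in place of 7, and 10 rose in the siRNA-labelled libraries in place of 5. All genes called lower on named transcripts stayed so, and Psmd5 was also called lower in both comparisons. The shares of all genes called, given above, are for named transcripts. Those with unnamed transcripts counted are not given here.

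**Figure D5:**
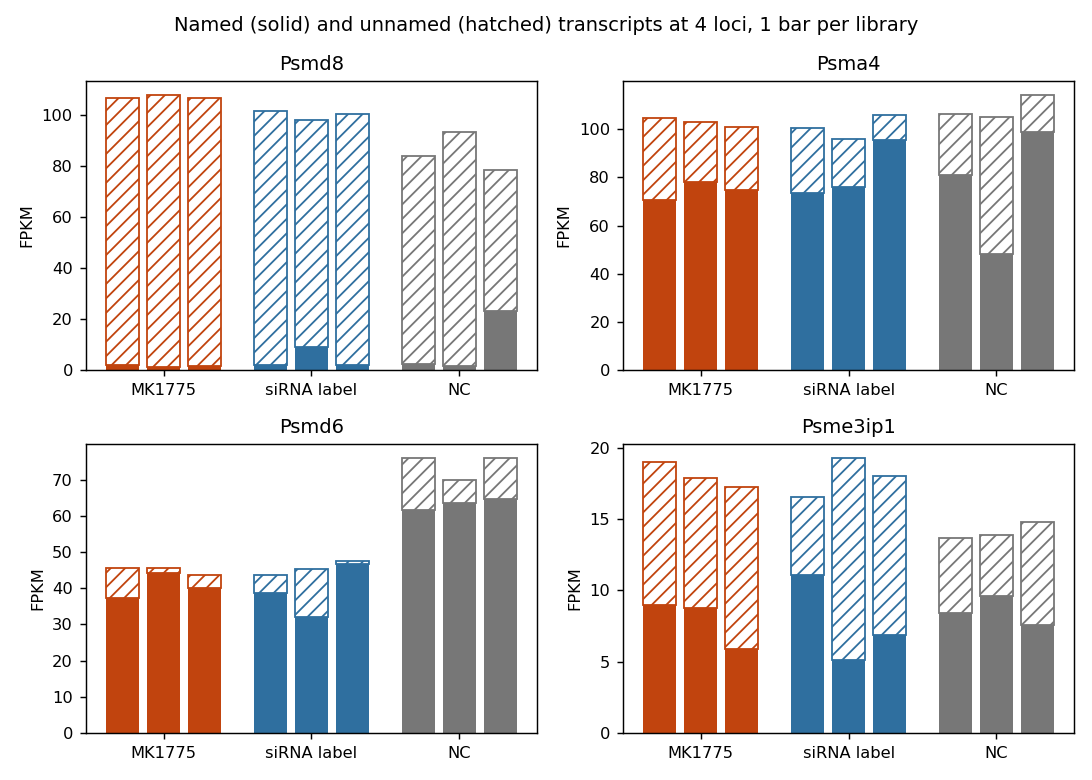
FPKM of named (solid) and unnamed (hatched) transcripts at the loci of Psmd8, Psma4, Psmd6 and Psme3ip1, 1 bar per library, with the 3 MK1775, 3 siRNA-labelled and 3 NC libraries from left to right. In NC, the solid and the hatched parts of Psma4 and Psmd8 vary more between replicates than their totals do.

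The activators, which open the barrel in place of the 19S particle, were mostly not called. Psme4, which is known for activating proteasomes in the nucleus and in testis, fell in both comparisons, at 9.67, 9.64 and 9.90 FPKM with MK1775, 8.86, 10.0 and 11.6 FPKM in the siRNA-labelled libraries, and 15.9, 12.1 and 13.7 FPKM in NC. All treated libraries were lower than NC, by 0.47 (adjusted p = 0.0118) and 0.42 (adjusted p = 0.0179). The siRNA-labelled call was lost without siRNA-labelled replicate 1 or 2 (adjusted p = 0.0501 to 0.0533). Psme1 and Psme2, the interferon-responsive subunits of the 11S ring, had log2 fold changes between 0.03 and 0.12 and were not called. Psme3, the nuclear 11S subunit, was at 27.4, 26.1 and 29.2 FPKM, at 32.4, 29.4 and 22.6 FPKM, and at 12.4, 17.3 and 26.1 FPKM in MK1775, siRNA-labelled and NC libraries. Its log2 fold changes of 0.60 and 0.62 did not pass (adjusted p = 0.0777 and 0.069), and NC replicate 3 lay beside the treated libraries. Unnamed transcripts at the Psme3 locus held 32.5%, 30.1% and 48.0% of the FPKM there in the same order of groups. With them the totals were closer, at 40.8 ± 0.727, 40.3 ± 2.97 and 35.8 ± 3.86 FPKM, and the siRNA-labelled and NC libraries overlapped. These transcripts were not added in the test, because the assembled locus also holds another named gene. Psme2b stayed at or below 0.36 FPKM and was not tested.

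Of the assembly chaperones, Psmg1 and Psmg4 fell in both comparisons. These are members of the pairs that assemble the alpha ring. Psmg1 was at 18.9, 19.7 and 20 FPKM with MK1775, at 19.4, 17.7 and 18.9 FPKM in the siRNA-labelled libraries, and at 25.6, 29.9 and 26.3 FPKM in NC, with no overlap and log2 fold changes of -0.46 (adjusted p = 0.00097) and -0.52 (adjusted p = 0.000478). Psmg4 was at 20.2, 19.8 and 19.6 FPKM, at 18.0, 16.8 and 19.8 FPKM, and at 26.1, 28.8 and 29.2 FPKM, also without overlap, with -0.47 (adjusted p = 0.000928) and -0.60 (adjusted p = 0.000279). Their partners Psmg2 and Psmg3 were not called, at 19.8 ± 2.40 and 20 ± 0.45 FPKM with MK1775, at 18.3 ± 1.69 and 18.8 ± 0.299 FPKM in the siRNA-labelled libraries, and at 20 ± 0.612 and 18.8 ± 2.44 FPKM in NC. The 3 chaperones of the 19S base, Psmd5, Psmd9 and Psmd10, did not pass on named transcripts. With unnamed transcripts added, Psmd5 passed as lower in both comparisons, at -0.18 (adjusted p = 0.0312) and -0.24 (adjusted p = 0.00908). Psmd9 stood at 5.01 FPKM in siRNA-labelled replicate 1, where an unnamed transcript held another 4.90 FPKM. Pomp, the maturation factor of the 20S core and not a subunit, rose to 60.9 ± 1.49 FPKM with MK1775 and to 60.5 ± 1.26 FPKM under the siRNA label, against 52.3 ± 2.02 FPKM in NC (log2 fold change 0.22 and 0.21, adjusted p = 0.00443 and 0.00537).

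Of the 2 genes named after a subunit they bind, Psmc3ip, which acts with the recombinases in meiosis, was at 16.4, 17.7 and 15.4 FPKM with MK1775, at 14.5, 15.4 and 18.8 FPKM in the siRNA-labelled libraries, and at 11.4, 12.9 and 14.5 FPKM in NC. On named transcripts it passed with MK1775 (0.34, adjusted p = 0.0479) and not in the siRNA-labelled libraries (0.31, adjusted p = 0.0628), and the direct difference was 0.03 (adjusted p = 0.973). With unnamed transcripts added it passed in both, at 0.47 (adjusted p = 0.000194 and 0.000175). The MK1775 call on named transcripts was lost without any 1 MK1775 library, NC replicate 1 or 2, or siRNA-labelled replicate 2 (adjusted p = 0.0625 to 0.14). Psme3ip1 was not called on its named transcripts, at 7.85 ± 1.72, 7.68 ± 3.07 and 8.54 ± 1.05 FPKM, and with the unnamed transcripts that held 52.0% of its FPKM it rose by 0.33 and 0.32. Leaving both out gave 6 rises and 17 falls with MK1775, and 5 and 17 in the siRNA-labelled libraries.

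Between MK1775 and the libraries labelled Wee1 siRNA no proteasome gene was called by limma, and none had an unadjusted p under 0.05. Of all genes tested, 0.00957% was called, which is 1 gene, and 616 had an unadjusted p under 0.05. The median log2 fold change of the 44 genes was 0.04, MK1775 over siRNA label. For 34 of the 44 the 95% interval lay within 0.3 of no change, and the other 10 were Psma4, Psmc6, Psmd5, Psmd6, Psmd8, Psmd9, Psme3, Psme3ip1, Psme4 and Psmg2. The lowest adjusted p was 0.847. Groups did not overlap for 4 genes, each higher with MK1775, beside 11.9% of all genes tested (5.08% higher and 6.78% lower).

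Genes around the proteasome were read from 5 lists, with 43 of 47 genes tested. With MK1775, 13 rose and 9 fell, and in the siRNA-labelled libraries 13 rose and 10 fell, beside the same backgrounds of 17.9% and 23.1%, and 19.6% and 23.2%. In the list of assembly and bound factors, 4 rose and 3 fell of 13 with MK1775, and 3 rose and 3 fell in the siRNA-labelled libraries. Ube3c, a ubiquitin ligase bound to the proteasome, was at 16.7 ± 0.696, 16.9 ± 0.758 and 22.8 ± 0.688 FPKM and fell by 0.43 and 0.42. Txnl1, a thioredoxin-like protein of the 19S particle, fell by 0.18 and 0.25. Zfand2a, an arsenite-inducible factor, rose by 0.45 with MK1775 and by 0.72 under the siRNA label. On named transcripts the MK1775 call of Zfand2a was lost without MK1775 replicate 1 or 2 or NC replicate 1 or 3 (adjusted p = 0.0716, 0.0879, 0.0552 and 0.0613). With unnamed transcripts added, Zfand2a rose by 0.75 with MK1775 (limma adjusted p = 6.78e-05) and by 0.93 under the siRNA label (adjusted p = 1.84e-05). Psmf1, an inhibitor of the 20S core, rose with MK1775 by 0.22 (adjusted p = 0.0194), a call lost without MK1775 replicate 1 or 2 or NC replicate 1 or 3 (adjusted p = 0.0513, 0.0714, 0.0544 and 0.0622).

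In the list of Nfe2l1 and its partners, 3 of 9 tested genes rose with MK1775, 4 rose under the siRNA label, and none fell in either. Nfe2l1 itself was at 36.8, 40.6 and 36.4 FPKM with MK1775, at 32.8, 32.1 and 45.4 FPKM in the siRNA-labelled libraries, and at 37.9, 39.7 and 39.5 FPKM in NC, with overlapping groups and no call (-0.04 and -0.10). Unnamed transcripts at the Nfe2l1 locus held another 9.09 to 20.8, 4.62 to 23.4 and 2.88 to 3.98 FPKM in MK1775, siRNA-labelled and NC libraries. With them the totals were 49.7 to 57.2, 50.1 to 55.6 and 40.8 to 43.5 FPKM, and every treated library was above every NC library. They were not added in the test, because the assembled locus also holds another named gene. Nfe2l2, the related factor that answers oxidants, was not called either (0.14, adjusted p = 0.0672, and 0.04, adjusted p = 0.559). Maff, a small Maf protein that pairs with both, was at 37.2, 39.6 and 40.3 FPKM, at 40.7, 38.3 and 35.1 FPKM, and at 17.8, 19.2 and 18.8 FPKM, and rose by 1.03 (adjusted p = 1.42e-05) and 0.99 (adjusted p = 1.69e-05). Its treated and NC libraries did not overlap, and Mafk, another small Maf gene, rose by 0.29 and 0.27. Ngly1, the deglycosylase that processes Nfe2l1, rose by 0.46 and 0.50. Its MK1775 call was lost without any 1 MK1775 library or without NC replicate 2 (adjusted p = 0.0532 to 0.08), and its siRNA-labelled call without siRNA-labelled replicate 3 (adjusted p = 0.0581). Mafg was at 0.07 with MK1775 (adjusted p = 0.769) and rose in the siRNA-labelled libraries by 0.53, a call lost without NC replicate 1, NC replicate 2 or siRNA-labelled replicate 3 (adjusted p = 0.0674, 0.0757 and 0.0602). Unnamed transcripts at the locus, which is shared with other named genes, held 43.7% of the FPKM when added to Mafg, and with them the totals were 20.3 to 24.0 FPKM with MK1775, 22.0 to 24.1 FPKM in the siRNA-labelled libraries and 14.1 to 15.4 FPKM in NC. Ddi2, the protease that cuts Nfe2l1, was at 0.703 FPKM in siRNA-labelled replicate 2, where an unnamed transcript held 6.18 FPKM, and between 6.47 and 7.14 FPKM in the other libraries.

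In the list of shuttles and the p97 machinery, which bring substrates to the proteasome, 4 of 12 genes rose and 4 fell with MK1775, and 4 rose and 6 fell in the siRNA-labelled libraries. Sqstm1, the autophagy receptor p62 that also binds the proteasome, was at 309, 292 and 309 FPKM with MK1775, at 147, 311 and 303 FPKM in the siRNA-labelled libraries, and at 105, 130.1 and 115 FPKM in NC. All treated libraries were above NC, by 1.38 (adjusted p = 0.0036) and 1.04 (adjusted p = 0.0127). In siRNA-labelled replicate 1 an unnamed transcript held another 204 FPKM, and with unnamed transcripts added the change there was 1.46. Nsfl1c, an adaptor of p97, was at 30.1 ± 1.7, 33.2 ± 0.828 and 55.8 ± 2.18 FPKM and fell by 0.87 and 0.73 (adjusted p = 1.32e-05 and 3e-05). Vcp, which encodes p97, was at 121 ± 3.18, 114 ± 4.21 and 153 ± 8.45 FPKM and fell by 0.33 and 0.42. Ubqln2, a shuttle that carries ubiquitin-tagged proteins, fell by 0.75 and 0.72, and Ubxn1, another p97 adaptor, rose by 0.53 and 0.49.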

How the data were processed

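Libraries were made from total RNA with a NEBNext Ultra kit, per the labels' protocols. The submitters' processing notes name StringTie, HISAT2, Trim Galore and FastQC, with build GRCm39. The authors deposited FPKM for 158719 transcripts, 17991 of them with no gene name. FPKM was summed per gene name (52306 genes, 19 names on several chromosomes left out). Low values were not whole multiples of a step (24.8% to 31% within 0.1 of one, where 20% is even spread), so reads were not recovered.

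The 10453 genes with a mean of 1 FPKM or more were tested on log2(FPKM + 1) with limma 3.58.1 in R 4.3.3: 1 fit of 9 libraries, eBayes with trend, two-sided, Benjamini-Hochberg over all genes, threshold 0.05. Low genes are understated on this scale. In simulated data for MK1775 against NC over 10453 genes, 78% of log2 changes of 1 and 48% of 0.5 were recovered. Only a small share of genes was changed there, far below the 41% called in the data. The adjusted threshold was thus stricter than in the data, and these rates do not measure the power of the real test. An exact permutation test of 3 against 3 cannot go below 0.1. Strand-aware counting is not stated, so overlapping genes cannot be told apart.

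Members, lists and tests were chosen with earlier results of these data known. Named genes were all members, the 4 related genes per list with the smallest adjusted p, and set genes such as Wee1, Pomp and Sqstm1. Alternatives were another pseudocount (0.1), other filters and scalings, the replicate number as a block, the groups compared alone, the most abundant transcript, unnamed transcripts added (in tests, where a locus holds 1 gene), and each library left out. Promoters are RefSeq's (GRCm38.p6); a GRCm39 genome was not used here. Values of some genes of the lists are not reported here.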

Additional observations from a re-analysis of the deposited data

How the results depend on the processing

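Each of 19 alternatives was tried for the called proteasome genes. Of the 24 called with MK1775 against NC, 18 were called in all of them, and of the 22 called in the libraries labelled Wee1 siRNA, 17 were; no call changed sign. Those lost under at least 1 were Psma7, Psmb3, Psmc3ip, Psmc4, Psmd2 and Psmd4 with MK1775, and Psma1, Psma7, Psmb3, Psmc4 and Psme4 in the siRNA-labelled libraries. On the most abundant transcript alone Psma7 was at -0.08 and Psmd2 at -0.19 with MK1775, neither called, Psmb1 was at -0.43, and Sqstm1 was not called (1.04 and 0.81, adjusted p = 0.0705 and 0.139).

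With unnamed transcripts added, 10 proteasome genes rose with MK1775 in place of 7, and 10 in the siRNA-labelled libraries in place of 5. The shares of all genes called in that setting are not given here. Psma6, which has no unnamed transcripts, joined the rises with MK1775, and Psme3, whose locus is shared, joined those under the siRNA label. Their log2 fold changes were unchanged, at 0.14 and 0.62. All genes called lower stayed so, and Psmd5 joined them in both comparisons. The median log2 fold change in the siRNA-labelled libraries was then -0.024. The summed FPKM averaged 3369 with MK1775, 3302 in the siRNA-labelled libraries and 3487 in NC, as more transcripts enter each sum. On the most abundant transcript 8 related genes rose with MK1775 in place of 13, and leaving out 1 library gave 8 to 13; the cause was not tested. The labels do not say that the replicate numbers pair the libraries. Correlations of deviations between same-numbered libraries were -0.12 to 0.0435, and between other libraries of different groups -0.155 to 0.182. With 3 libraries a group these values cannot show whether libraries were paired. With the replicate block, 5 proteasome genes rose and 16 fell with MK1775, 4 rose and 17 fell in the siRNA-labelled libraries, and 0 were called between the treated groups. Depth is unknown, and the number of libraries limits the precision.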

Other observations

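Replicates were close for most proteasome genes. The median coefficient of variation of FPKM over the 44 tested genes was 4.27% with MK1775, 4.88% in the libraries labelled Wee1 siRNA and 4.94% in NC, and it was above 15% for 2, 6 and 5 genes in these groups. FPKM of subunits of the same ring differed by more than the changes between groups. In the alpha ring Psma7 was at 7.25, 7.19 and 5.90 times the FPKM of Psma2 in MK1775, siRNA-labelled and NC libraries. FPKM is divided by the length of the transcript model, and that of the most abundant transcript was 914 bases for Psma7 and 2911 bases for Psma2. The part of these lengths in the gap was not tested. In NC, 29 of the 47 genes were at 50 FPKM or more.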
